A study of Macaca mulatta with 5 samples.

Results

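Differentiated NPC c14 and c19 are clusters of the deposited annotation, where NPC is the usual short form of nephron progenitor cell. The cells were taken by these names as the authors gave them, in the 5 rhesus libraries that the labels describe. They held 2463 of the 36039 cells of these libraries, 840 in c14 and 1623 in c19. All libraries were made from fetal kidneys of rhesus macaques (Macaca mulatta) in the late second and the third trimester, enriched for cortex and with no experimental treatment stated, and were run on the 10x Genomics 3' version 3 platform. For the dissected libraries, 600 and 628, cortex was cut out by hand from 2 donor kidneys and digested with an enzyme mixture that is active in the cold. For the vortexed libraries, 623, 627 and 632, a cold mix named for Bacillus licheniformis and vortexing were used to free mainly cortical cells. The gestational age of each library was not given, so it cannot be told apart from the preparation. The table also holds rows of 11 other library names, human ones among them, which were not analysed here, so no balance between species is given for c14 or c19.

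In the forming kidney, nephron progenitors of the cap mesenchyme condense beside the ureteric bud tip and turn into epithelium, passing through the renal vesicle and the comma- and S-shaped bodies. The parts of the S-shaped body then give rise to podocytes at the proximal end, to the proximal tubule and loop of Henle, and to the distal tubule, which joins the collecting duct. Early committed cells of this kind are usually recognised by WNT4, the signal that drives progenitors into epithelium, by the transcription factors PAX8 and LHX1, by the Notch ligand JAG1 and by the cell cycle gene CCND1. The deposited table holds no gene values, so these 5 markers could not be checked, and the name Differentiated NPC is the authors' own. What the table allows is to count the cells and to describe where they lie in the authors' UMAP embedding, a flat layout of the integrated cells in arbitrary units. Sequencing depth is unknown.

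Some facts apply to all values below. The libraries held between 2553 cells (library 632) and 10502 cells (library 627). No pair was a duplicate, since the smallest chi-square per degree of freedom was 25.3 among the 10 pairs, over 37 clusters. A barcode also found in another of the 5 libraries was carried by 10 c14 cells (1.19%) and 11 c19 cells (0.678%), against 0.794% of all cells. Intervals for single libraries are exact 95% binomial intervals and cover counting error only. Nothing in the labels states that each library came from its own animal, so the spread between libraries may be partly technical.

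The cluster c14 was the smaller one on average, at 2.68% ± 1.09 of a library against 4.59% ± 2.92 for c19 (SD, n = 5 each). By mean share, c14 ranked 16 and c19 ranked 7 among the 37 clusters. In the dissected libraries, c14 made up 3.13% (2.73 to 3.57) of library 600 and 2.18% (1.83 to 2.57) of library 628. In the vortexed libraries it made up 2.20% (1.92 to 2.51) of library 623, 1.53% (1.31 to 1.79) of library 627 and 4.35% (3.59 to 5.21) of library 632. Library 632, with the fewest cells, thus had the highest c14 share, and the preparations overlapped.

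The order of the libraries was another one for c19. In the dissected libraries, c19 made up 9.20% (8.52 to 9.91) of library 600 and 5.77% (5.21 to 6.37) of library 628. In the vortexed libraries it made up 3.17% (2.83 to 3.53) of library 623, 2.46% (2.17 to 2.77) of library 627 and 2.35% (1.80 to 3.01) of library 632. Both dissected libraries stood above all vortexed ones, and library 632, the highest in c14, was the lowest in c19. In library 600, c19 was the second most frequent of all clusters, whereas it ranked 14 in library 632. The most extreme libraries differed 2.84-fold in c14 and 3.91-fold in c19, both below the median of 5.04-fold over the 35 clusters found in every library.

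**Figure D1:**
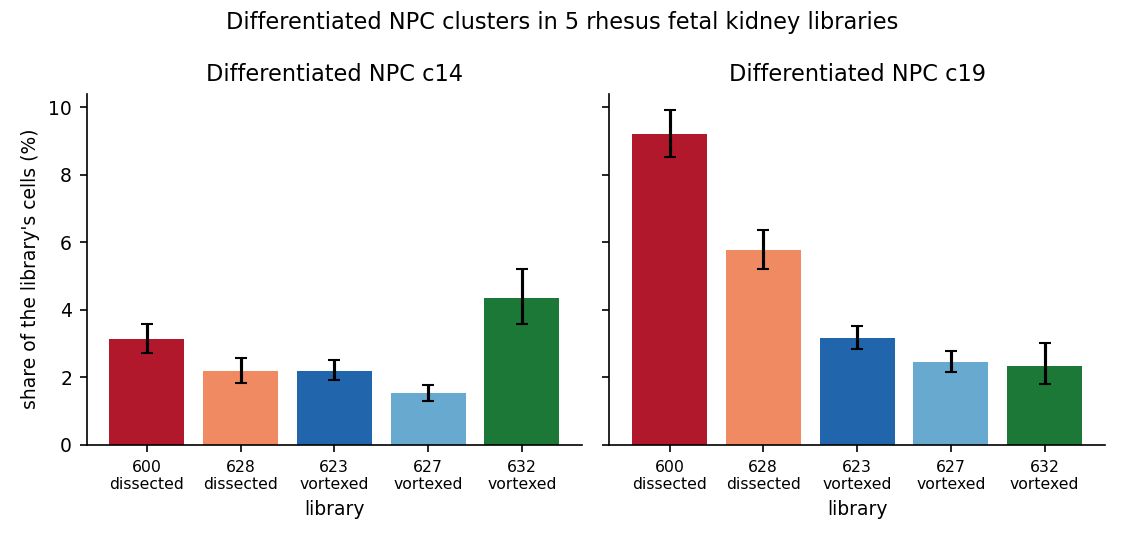
Share of each library's cells named Differentiated NPC c14 (left) and c19 (right), in percent, with the dissected libraries left of the vortexed ones. Bars are single libraries and error bars are exact 95% binomial intervals. The c14 share is highest in vortexed library 632 (4.35%), while the c19 share is highest in the dissected libraries (9.20% and 5.77%).

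The question of whether hand dissection and vortexing gave different shares was asked with limma, fitted to the log2 odds of all 37 clusters. For c19 the log2 odds ratio of dissected over vortexed libraries was 1.54 (SE 0.66, limma adjusted p = 0.361), with mean shares of 7.48% ± 2.43 (SD, n = 2) and 2.66% ± 0.445 (SD, n = 3). The difference did not pass the adjusted threshold of 0.05, and its unadjusted limma p was 0.048 (95% interval 0.013 to 3.06). That unadjusted limma p was 0.126 with the centred log-ratio and 0.056 without phase-named clusters in the denominator. It was 0.036 with nephron-lineage cells as the denominator and 0.049 with 1 cell added. Without vortexed library 623, 627 or 632, the unadjusted limma p was 0.072, 0.075 and 0.151. Over all clusters, 0% passed the adjusted threshold and 13.5% had an unadjusted limma p below 0.05. For c14 the log2 odds ratio was 0.09 (SE 0.73, 95% interval -1.61 to 1.80, limma adjusted p = 0.954), with mean shares of 2.65% ± 0.671 in dissected and 2.69% ± 1.47 in vortexed libraries. The sign of this c14 value was not stable, since it was -0.17 without library 600 and -0.25 without library 627. The shares of the 2 preparations did not overlap for c19 and overlapped for c14. Of all 37 clusters, 29.7% had a higher share in every dissected than in every vortexed library, and c19 was 1 of these 11 clusters.

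The balance between the clusters was then compared within libraries, which does not depend on the other cells. In the dissected libraries, 214 c14 cells stood against 629 c19 cells in library 600, and 138 against 365 in library 628. In the vortexed libraries, 216 c14 cells stood against 311 c19 cells in library 623, 161 against 258 in library 627, and 111 against 60 in library 632. The ratio of c14 to c19 was thus 0.340 and 0.378 for dissected tissue, and 0.695, 0.624 and 1.85 for vortexed tissue. In 4 of 5 libraries c14 was the smaller cluster, and library 632 was the exception. The mean log2 ratio of -0.65 ± 0.97 (SD, n = 5) did not differ from 0 by an exact two-sided sign-flip permutation test (p = 0.25, where 0.0625 is the smallest that 5 libraries allow). Without library 632 the mean log2 ratio was -1.04, and without library 600 it was -0.43.

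Both dissected libraries had a lower ratio of c14 to c19 than any vortexed library. The mean log2 ratio was -1.48 ± 0.11 in dissected (SD, n = 2) and -0.11 ± 0.86 in vortexed libraries (SD, n = 3), a difference of -1.37. By an exact two-sided permutation test over the 10 splits of 2 against 3, p was 0.2, where 0.1 is the smallest possible. Seen as the c19 part of the Differentiated NPC cells, the values were 74.6% and 72.6% for dissection, and 59.0%, 61.6% and 35.1% for vortexing (623, 627 and 632). The mean difference of 21.7 percentage points was 13.3 points without library 632, and the difference in mean log2 ratio was -0.87 without it.

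Within the early nephron cells, that is c14, c19 and Broad proximal diff (c17) together, c14 made up 21.7% ± 11.1 and c19 33.0% ± 11.2 (SD, n = 5 each). The c14 part ranged from 14.4% in library 627 to 41.0% in library 632. The c19 part was 45.9% in library 600 and 43.5% in library 628, both dissected, against 30.4%, 23.1% and 22.1% in the vortexed libraries 623, 627 and 632. Of the nephron-lineage cells, c14 and c19 together made up 18.2% and 13.6% after dissection, and 9.08%, 8.68% and 13.7% after vortexing. The preparations did not overlap for c19 alone by this measure (13.6% and 9.85%, against 5.36%, 5.34% and 4.82%), but they overlapped for the sum, through library 632 with its 8.92% of c14.

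The clusters were further set against Cap mesenchyme (c30), the condensed progenitors, Broad proximal diff (c17) and Podocyte (c20), the filtering epithelium of the glomerulus. Broad proximal diff is named for cells on the way to the proximal tubule. Whether it is more mature than c14 or c19 was not tested. NPC (c25), also a progenitor name, was not part of these ratios. Progenitor names with c25 made up 3.04% and 21.6% in libraries 600 and 628, and 33.1%, 18.5% and 6.40% in libraries 623, 627 and 632. These are shares of cells outside c14 and not named by a cell cycle phase. Of all cells not so named, c14 and c19 together made up 13.0%, 9.21%, 6.39%, 5.50% and 7.05% in the same order. Together, c14 and c19 outnumbered c30 in 4 of 5 libraries, all except library 627, with ratios from 0.927 in library 627 to 6.11 in library 600. On the log2 scale their mean ratio was 1.00 ± 1.02 (SD, n = 5; exact sign-flip permutation p = 0.125, adjusted p = 0.375 over 9 ratios), and it was 0.60 without library 600. They also outnumbered c17 in 4 of 5 libraries (mean log2 ratio 0.28 ± 0.63, exact p = 0.375, adjusted p = 0.482), again except library 627. Against c20 they were more frequent in 4 of 5 libraries (0.70 ± 0.85, exact p = 0.1875, adjusted p = 0.422), the exception being library 600 with its 1213 podocytes.

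Taken singly, c14 was less frequent than c17 in 4 of 5 libraries (mean log2 ratio -1.15 ± 0.82, exact sign-flip permutation p = 0.125, adjusted p = 0.375) and less frequent than c30 in 4 of 5 libraries (-0.43 ± 0.86, exact p = 0.3125, adjusted p = 0.469). The exceptions were library 632 for c17, where 111 c14 cells stood against 100 c17 cells, and library 600 for c30, where 214 stood against 138. For c19 the ratios lay on both sides of 1. It outnumbered c30 in libraries 600, 628 and 623 and not in libraries 627 and 632, with 629 c19 against 138 c30 cells in library 600 and 60 against 118 in library 632. The mean log2 ratio of c19 to c30 was 0.23 ± 1.26 (exact p = 0.8125, adjusted p = 0.914) and turned to -0.26 without library 600, while it was 0.49 without library 627 and 0.53 without library 632. Single libraries also moved other mean log2 ratios by more than 1.5 times. Both clusters to c17 gave 0.53 without library 627, 0.15 without library 632 and 0.18 without library 600, and both to c20 gave 0.42 without library 628. The ratio of c14 to c30 was -0.16 without library 627, -0.26 without library 628 and -0.69 without library 600. The mean log2 ratio of c14 to c20 was -0.73 ± 1.06 (exact sign-flip p = 0.125, adjusted p = 0.375) and -0.28 without library 600. That of c19 to c17 was -0.49 ± 0.69 (exact sign-flip p = 0.25, adjusted p = 0.45) and -0.26 without library 627. That of c19 to c20 was -0.07 ± 0.94 (exact sign-flip p = 0.9375, adjusted p = 0.9375). It was 0.15 without library 600, 0.12 without library 632 and -0.43 without library 628. The ratio of c19 to c17 was higher in both dissected libraries (1.19 and 1.09) than in vortexed libraries 623, 627 and 632 (0.628, 0.369 and 0.600), and this difference between preparations was not tested. For all others of the 9 ratios to c30, c17 and c20 the preparations overlapped. None of the 9 ratios passed an adjusted p of 0.05, which no ratio over 5 libraries could reach with the smallest exact p of 0.0625.

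**Figure D2:**
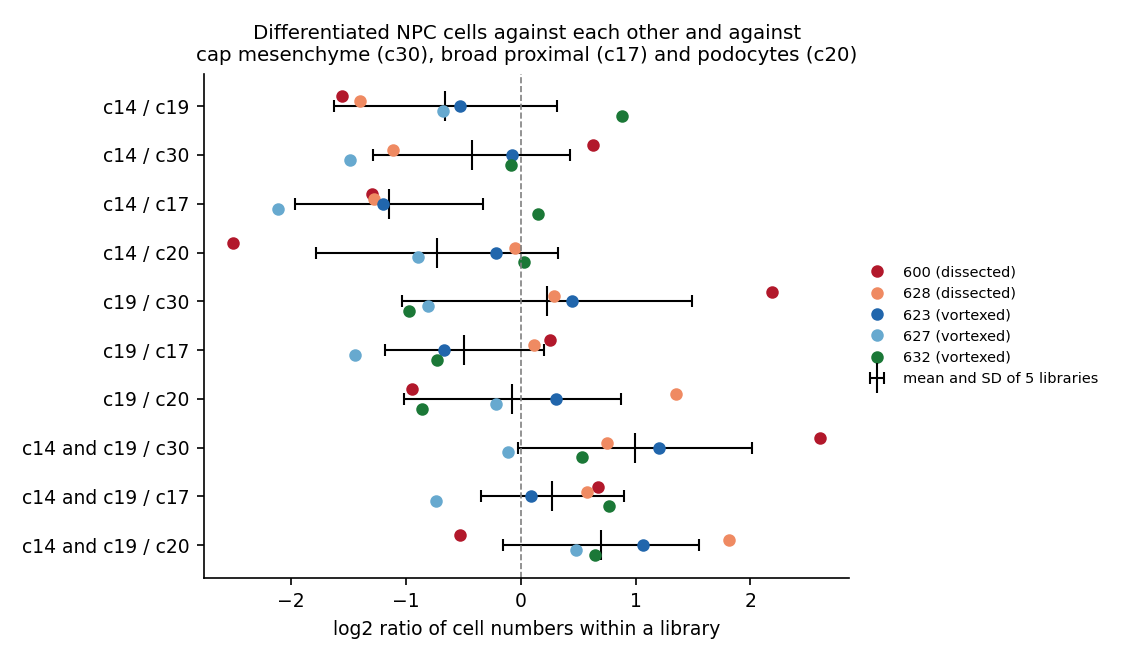
Log2 ratio of cell numbers within a library, for c14 against c19 and for c14, c19 and both together against Cap mesenchyme (c30), Broad proximal diff (c17) and Podocyte (c20). Points are single libraries, bars are the mean and SD of 5 libraries, and the dashed line marks equal numbers. The ratio of c14 to c19 is below 0 in 4 libraries and above 0 in library 632 (0.88), and the ratio of both together to c30 is highest in library 600.

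In the embedding, c14 and c19 had centres of their own and met at their edges. In each library the centre of a cluster was taken as the median position of its cells. The centres of c14 and c19 lay 2.93 ± 0.44 UMAP units apart (SD, n = 5, range 2.37 to 3.53). The typical cell lay 1.05 ± 0.16 units from its centre in c14 and 1.18 ± 0.08 units in c19. From c14, the nearest of the centres compared was that of Loop of Henle (c15), at 1.08 ± 0.34 units, followed by Interstitial Cell Lineages (c16) at 1.51 ± 0.10 and Thick ascending limb (c12) at 1.69 ± 0.26. From c19 the nearest was Cap mesenchyme (c30), at 1.20 ± 0.60 units, followed by Loop of Henle (c15) at 2.15 ± 0.20 and Broad proximal diff (c17) at 2.90 ± 0.19. Only 2 of the 840 c14 cells and 8 of the 1623 c19 cells lay more than 5 units from the centre of their cluster over all libraries. Cluster names and positions come from the same integrated data, so these distances and the neighbours below are a description and were given no test.

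**Figure D3:**
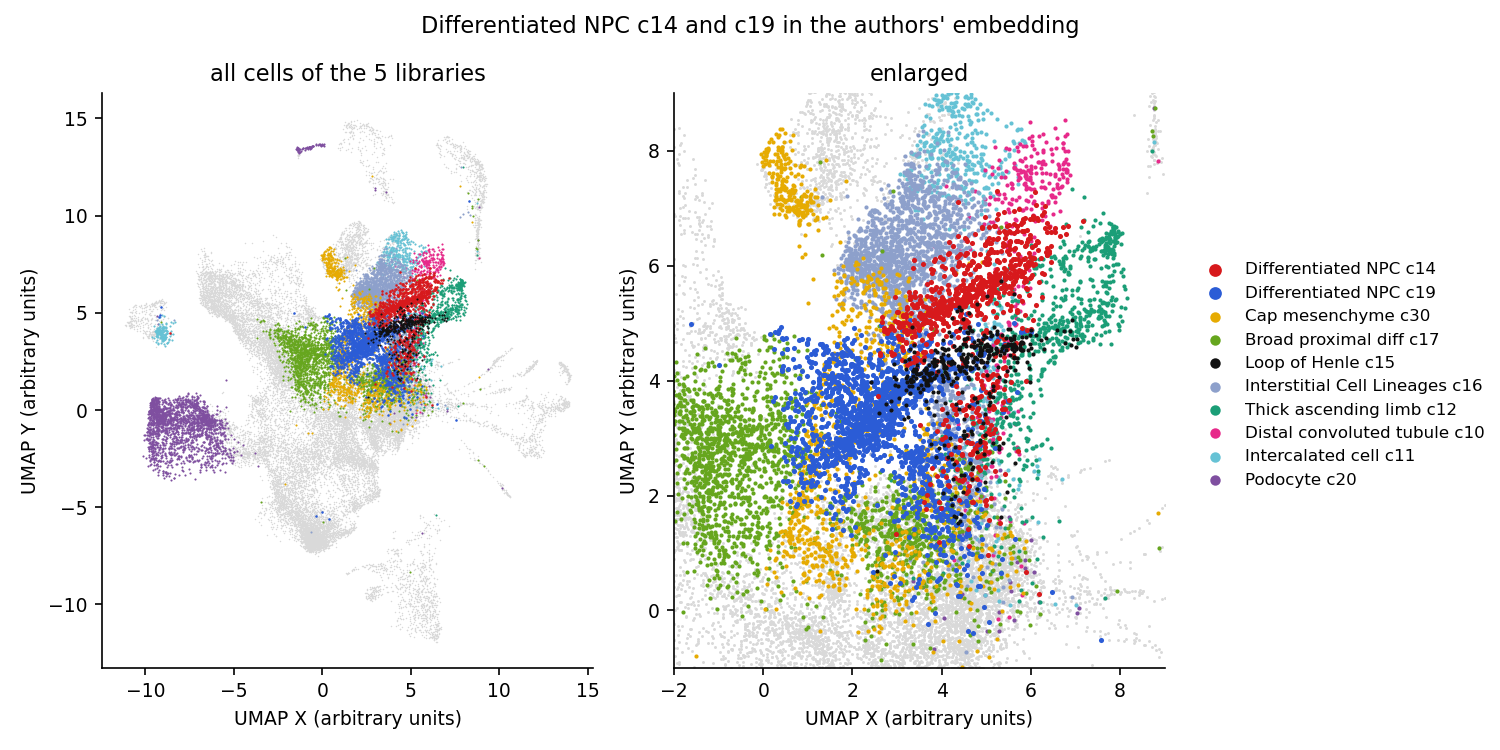
Positions of all cells of the 5 libraries in the authors' UMAP embedding (arbitrary units), whole on the left and enlarged on the right. Each point is a cell, with c14 in red, c19 in blue, 8 other clusters in the colours of the legend and all others in grey. Most of c19 borders Cap mesenchyme (c30) and Broad proximal diff (c17), and most of c14 lies among Interstitial Cell Lineages (c16), Thick ascending limb (c12) and Distal convoluted tubule (c10), with centres 2.93 units apart on average; in the lower right of the enlarged view cells of both intermingle.

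For each cell the 15 nearest cells of its library with another cluster name, leaving out the 3 clusters named by a cell cycle phase, were taken as its neighbours. Among the neighbours of c14, names of the distal nephron were frequent. Distal convoluted tubule, loop of Henle and thick ascending limb together made up 37.6% ± 11.9 of them, against 4.93% of all cells that could have been neighbours. Thick ascending limb (c12), the salt-reabsorbing thick part of the loop's ascending limb, made up 14.2% ± 8.31, Distal convoluted tubule (c10) 12.05% ± 5.26 and Loop of Henle (c15) 11.3% ± 5.36 (SD, n = 5 each). The largest single name was Interstitial Cell Lineages (c16), a stromal name, with 35.6% ± 12.3, against 8.59% of all possible neighbours. Intercalated cell (c11), the acid-base regulating type of the collecting duct, made up 8.37% ± 3.37. These 5 names exceeded their share among all possible neighbours in 5 of 5 libraries, and so did Cap mesenchyme (c30), by less, at 5.94% ± 1.83 against 4.36%. By class, however, the nephron progenitors, which also hold NPC (c25), came to 6.46% ± 1.63 against 16.5% of all possible neighbours. They were above that share in 1 of 5 libraries. Early nephron names, here c17 and c19, came to 7.34% ± 4.71 against 12.3%, also above it in 1 of 5. Stromal names as a class came to 36.3% ± 12.3 against 21.7%, above that share in 5 of 5 libraries. Collecting duct names as a class came to 10.8% ± 3.81 against 7.11%. They were above that share in 3 of 5 libraries and below it in dissected libraries 600 and 628.

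The leading names around c19 were Cap mesenchyme (c30) and Broad proximal diff (c17). Cap mesenchyme (c30) made up 38.2% ± 11.5 of them, against 4.45% of all possible neighbours, and was above that share in 5 of 5 libraries. Broad proximal diff (c17) made up 17.6% ± 8.26, against 7.12%, and was above its share in 4 libraries but not in library 627 (9.38% against 9.51%). Loop of Henle (c15) made up 11.6% ± 7.06 against 1.40%, above its share in 5 of 5 libraries. Interstitial Cell Lineages (c16) made up 10.3% ± 11.5, but library 632 alone stood at 30.8%, and the rest at 4.05% to 6.07%. Without library 632 the mean was 5.14%. By class, the nephron progenitors, which also hold NPC (c25), came to 39.4% ± 12.4 against 16.9% of all possible neighbours, little more than c30 alone. Proximal tubule names made up 9.02% ± 2.93 against 23.7%, above their share in 0 of 5 libraries, and names of the distal nephron made up 12.8% ± 7.86 against 5.11%, above it in 4 of 5.

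Set side by side, Cap mesenchyme (c30) was less frequent around c14 than around c19 in 5 of 5 libraries, at 5.94% and 38.2%, a difference of -32.2 ± 10.3 percentage points. Broad proximal diff (c17) was likewise less frequent around c14, at 1.29% against 17.6% around c19, in 5 of 5 libraries. In the other direction, c14 exceeded c19 in 5 of 5 libraries for Interstitial Cell Lineages (c16) by 25.3 ± 10.7 points, for Thick ascending limb (c12) by 13.1 ± 7.92, for Distal convoluted tubule (c10) by 11.9 ± 5.34 and for Intercalated cell (c11) by 8.06 ± 3.41. Loop of Henle (c15) was about as frequent around both, at 11.3% and 11.6%, with c14 higher in 3 libraries and c19 higher in the other 2. Podocytes made up 0.903% of the neighbours of c14 in library 600 and were not among them in the other 4 libraries, and they made up 0% to 0.155% of the neighbours of c19. Of all possible neighbours of c14 they were 19.4% in library 600 and 2.69% to 4.71% in the other 4 libraries. Immune names made up 0.0158% of the neighbours of c14 and 0.0570% of those of c19, against 4.68% and 4.70% of all possible neighbours.

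**Figure D4:**
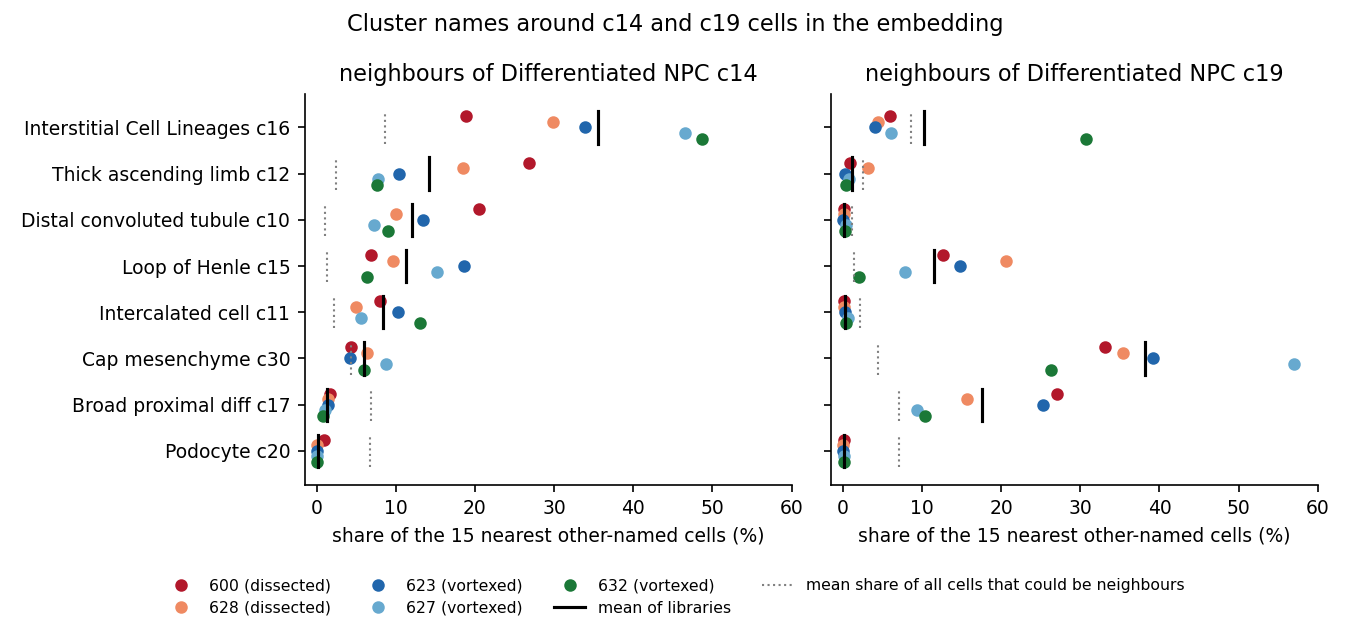
Share of each cluster name among the 15 nearest other-named cells, in percent, for c14 cells (left) and c19 cells (right). Points are single libraries, black lines the mean of 5 libraries and dotted grey lines the mean share of the name among all cells that could be neighbours. Interstitial Cell Lineages (c16) leads for c14 at 35.6% and Cap mesenchyme (c30) for c19 at 38.2%.

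The neighbours of c14 varied between libraries. Interstitial Cell Lineages (c16) made up 18.9% of them in library 600 and 29.9% in library 628, both dissected, and 33.9%, 46.5% and 48.7% in the vortexed libraries 623, 627 and 632. Thick ascending limb (c12) made up 26.8% and 18.5% for dissection, and 10.4%, 7.70% and 7.63% for vortexing. Neither order overlapped between the preparations. The abundance of c12 followed the same split: it made up 4.19% and 4.94% of all possible neighbours for dissection, against 1.42%, 0.643% and 1.25% for vortexing. That of c16 did not, at 5.34% and 4.62% for dissection, and 5.02%, 6.37% and 21.6% for vortexing, where library 632 alone stood apart. Among the other names that made up at least 5% of the neighbours of c14, c19 did not overlap between the preparations either. It made up 5.42% and 14.1% for dissection, and 2.59%, 4.89% and 3.30% for vortexing. The shares of c10, c15, c11 and c30 overlapped. Around c19, the shares of c30, c17, c15 and c16 all overlapped between the preparations. The part of abundance in these neighbour shares was not tested.

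Single cells of one cluster lay beside different names. When each c14 cell was given the most frequent name among its neighbours, 359 of the 840 cells had Interstitial Cell Lineages (c16), 147 Thick ascending limb (c12), 103 Distal convoluted tubule (c10), 97 Loop of Henle (c15) and 50 Intercalated cell (c11). In dissected library 600 the leading name was c12 for 44.4% of c14 cells, whereas in vortexed library 632 it was c16 for 61.3%. Of the 1623 c19 cells, 844 had Cap mesenchyme (c30), 283 Broad proximal diff (c17), 235 Loop of Henle (c15) and 93 c16. Only 37 c14 cells had c19 as the leading name. Of all neighbours of c14, c19 made up 6.05% ± 4.62 against 5.37% of all possible neighbours, above that share in 3 of 5 libraries. Around c19, c14 made up 4.31% ± 1.58 against 3.19%, above it in 5 of 5. A c14 cell had a c19 cell closer to it than any cell of its own name in 7.87% of cases in library 623 up to 16.7% in library 628, and a c19 cell had a c14 cell closer in 2.86% of cases in library 600 up to 18.3% in library 632.

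The clusters were also compared in how much they kept to themselves, by the names of the 15 nearest cells of any name. Of these, 50.6% ± 9.83 carried the own name in c14 and 52.6% ± 18.97 in c19 (SD, n = 5 each), close to the median of 52.2% over the 23 clusters with enough cells in every library. Cap mesenchyme (c30) was more mixed, at 33.5% ± 11.0, and Podocyte (c20) the most self-contained of the 23, at 89.6% ± 4.14. Values for c14 were 55.5% in library 600 and 46.7% in library 628, both dissected, and 60.8%, 54.6% and 35.6% in the vortexed libraries 623, 627 and 632. Values for c19 were 70.0% and 58.0% after dissection, and 65.3%, 47.3% and 22.3% after vortexing. Library 632 was the lowest in both, and it also held the fewest cells of each, 111 and 60; the part of cell number in this was not tested. Cells named by a cycle phase made up 0.170% ± 0.113 of the nearest cells in c14 and 2.11% ± 1.20 in c19. The values were 13.6% ± 4.50 in c30, 6.34% ± 3.23 in c17 and 0.347% ± 0.294 in c20. Over all cells, those without such a name were 6469 of 6839 in library 600 and 5462 of 6329 in library 628. In libraries 623, 627 and 632 they were 8251 of 9816, 7622 of 10502 and 2425 of 2553.

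**Figure D5:**
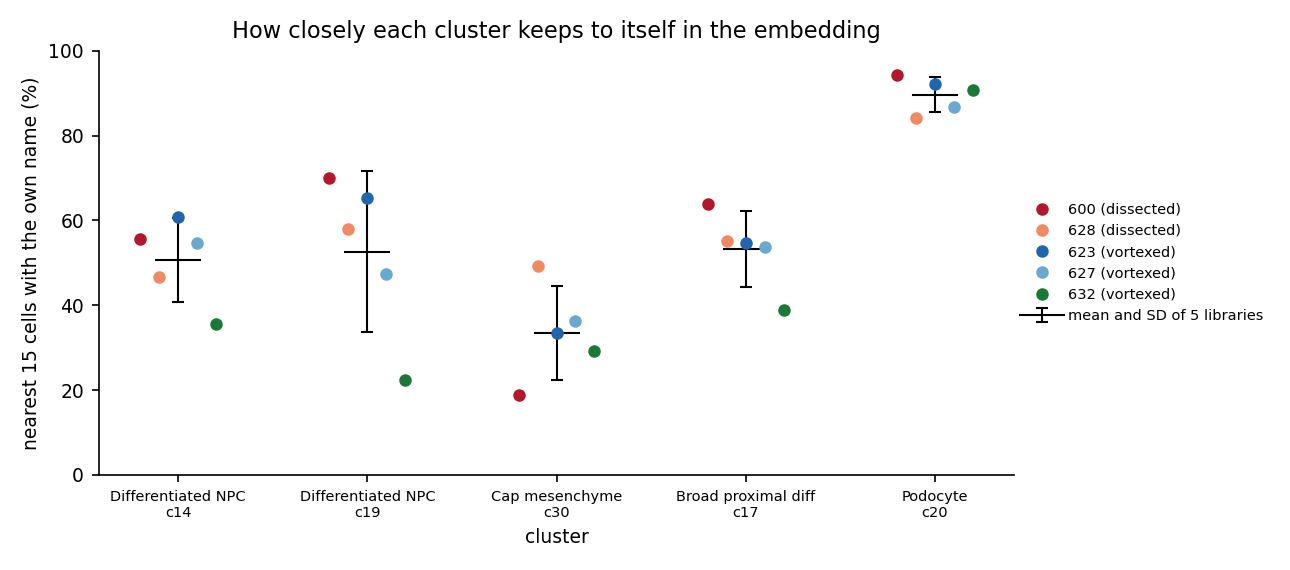
Share of the 15 nearest cells of any name that carry the own cluster name, in percent, for c14, c19 and the 3 clusters compared with them. Points are single libraries, and bars are the mean and SD of 5 libraries. The means of c14 (50.6%) and c19 (52.6%) lie between those of Cap mesenchyme c30 (33.5%) and Podocyte c20 (89.6%), and library 632 is lowest for both.

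The libraries were mixed within both clusters, with a moderate excess of cells from the same library. Names and positions come from integrated data, so the mixing is a description too and was given no test. Among the 15 nearest cells of the same name in all 5 libraries, the own library was 1.30 ± 0.13 times as frequent as its part of the cluster in c14 and 1.30 ± 0.19 times in c19 (SD, n = 5 each). The highest values were 1.48 in library 600 for c14 and 1.59 in library 632 for c19. Cap mesenchyme (c30) gave 1.44 ± 0.17 and Broad proximal diff (c17) 1.25 ± 0.10 by the same measure.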

How the data were processed

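Cells were profiled by 10x Genomics 3' single-cell RNA sequencing, per the labels' protocols. The submitters' processing notes name Seurat, Cell Ranger 6.0.1 and hg19, without saying what each was used for. How cells were filtered, doublets treated, and libraries integrated and clustered is not given in the sources used here. This deposited table has 1 row per cell, with the authors' cluster name, the library and a position in the authors' UMAP, an arbitrary score per the file headers. It has 0 columns of gene values. Rows were used where the library name is a number in a title; the other 58227 rows, under 11 library names, were not analysed here.

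Counts of cells were taken by cluster and library. Shares carry exact 95% binomial intervals. A count of 0 would be read as up to 3 cells. limma 3.58.1 (R 4.3.3) was fitted to log2 odds with 0.5 cells added, keeping clusters with 10 or more cells, and adjusted by Benjamini-Hochberg over all 37 clusters. The limma code was also run on simulated data with larger changes than those of c14 and c19. Such a run says nothing about its power for these libraries. Log2 ratios, also with 0.5 cells added, were tested by exact permutation over libraries. The 37 names were grouped by name alone; the nephron lineage holds 13 clusters. Neighbours used scipy 1.17.1. The clusters named are c14, c19, c30, c17, c20 and those making up at least 5% of the neighbours of c14 or c19. Leading neighbour names, distances between centres, library mixing, cells closer to the other cluster and the 5-unit limit were added after the data were seen. The members, name groups and tests were chosen with earlier results of these data known.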

Additional observations from a re-analysis of the deposited data

Results flagged for a closer look

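Of 27 measures examined over the 5 libraries, 2 had a library whose gap to the next, as a part of the whole range, exceeded the 95% critical value of 0.71 in Dixon's test. Chance alone gives about 1 such library in 20 groups. In dissected library 628, c19 made up 14.1% of the neighbours of c14, against 2.59% to 5.42% in the other libraries. In vortexed library 632, Interstitial Cell Lineages (c16) made up 30.8% of the neighbours of c19, against 4.05% to 6.07% in the other libraries; c16 made up 19.6% of all cells of library 632.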

How the results depend on the processing

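Of 212 values under alternatives, 8 turned direction. The 212 include the neighbour and own-name shares, which are percentages and cannot turn. For the log2 odds ratio of c14, 5 of 10 alternatives turned. The neighbour and own-name shares stayed within 1 SD of their mean over libraries. Leaving out 1 of 5 libraries cannot move a mean that far, so for those settings this says nothing about stability. The exact tests could not pass 0.05 in any setting, so their side of the threshold says nothing about stability. The log2 odds ratio of c14, 0.09, turned to -0.16 with the centred log-ratio, -0.026 without phase-named clusters in the denominator and -0.23 with nephron-lineage cells as the denominator, and ranged from -0.25 to 0.52 with 1 library left out. That of c19 ranged from 1.17 to 1.90 over all alternatives, with limma adjusted p from 0.237 to 0.970. Leaving out single libraries, the log2 ratio of c19 to c30 ranged from -0.26 (without 600) to 0.53 and that of c19 to c20 from -0.43 (without 628) to 0.15 (without 600); it was 0.12 without library 632. The cause of these turns was not tested. Keeping every cluster changed nothing, since each held at least 10 cells. With 5 or 50 neighbours, phase-named cells kept, or cells of all 5 libraries as neighbours, the leading neighbour share ranged from 32.3% to 39.7% for c16 around c14 and from 31.4% to 45.1% for c30 around c19, left-out libraries included. Restricting both clusters to cells within 5 UMAP units, an alternative added after seeing the data, gave a mean log2 ratio of c14 to c19 of -0.65. The unknown depth per cell limits what the names can show.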
